A study of Rattus norvegicus with 27 samples.

Results

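Acetylcholine reaches the medial prefrontal cortex (mPFC) from cholinergic neurons of the basal forebrain and acts there on both families of acetylcholine receptors. Muscarinic receptors are G protein-coupled: M1 and M3 signal through Gq and phospholipase C, and M2 and M4 through Gi. Nicotinic receptors are ligand-gated cation channels of 5 subunits, and those of the cortex are mainly built from the subunits alpha4 and beta2, to which alpha5 can be added, or from alpha7 alone. Muscarinic signalling raises the excitability of pyramidal neurons in part by closing potassium channels of the KCNQ family, and alpha5 is known in cortex above all from the deep layers.

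The 8 genes described here encode the muscarinic receptors M1 to M4 (Chrm1, Chrm2, Chrm3, Chrm4) and the nicotinic subunits alpha4, alpha5, alpha7 and beta2 (Chrna4, Chrna5, Chrna7, Chrnb2). They were taken by symbol from a table of 36865 genes, and all 8 belonged to the 11730 genes whose counts averaged 10 or more per library. The table held 27 polyA RNA libraries, each from the bilateral mPFC of 1 adult male Wistar rat (Charles River), dissected to hold the infralimbic, prelimbic and anterior cingulate cortex. The rats formed 1 group, had no control group and were killed straight from the home cage, in a resting state, early in their active phase. They had earlier passed through a battery of repeated anxiety tests (elevated plus-maze, light-dark box and open field). The labels name learned helplessness as the treatment of every rat and also list acoustic startle and fear conditioning, and the labels and the study's methods differ in the position and thickness of the section and in the library kit. By the study's methods, the rats were picked at regular steps along a ranking by anxiety score. Those methods give 2 cohorts of such rats, and the labels do not say which cohort a library came from. The study asked which transcripts follow trait anxiety, and the anxiety scores of single rats were not analysed here, so the values below are levels, spreads and relations between genes across rats.

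The number in a library's name parted the depth. The 16 libraries numbered up to 31 had totals of 4907255 to 8568317 counts, and the 11 numbered from 32 had 9404220 to 12771309, so the called relations between members and with marker scores are also given within these number sets. What the numbers stand for is not given in the labels, and the number sets and the cohorts cannot be told apart from them. No pair of libraries was identical. Library 3 stood apart from the rest: its median Spearman correlation with the other libraries over all tested genes was 0.964, against 0.983 to 0.991 for the other 26, and it also had the highest oligodendrocyte marker score (2.32) and the lowest upper-layer score (-2.10) of all rats. Markers of cortical neurons had counts in all rats, among them Snap25 (24623 normalized counts), the upper-layer gene Cux2 (825 normalized counts) and the deep-layer gene Fezf2 (813 normalized counts). Striatal projection neuron markers were detected too, 7 of 7, with Drd2 at 87.1 normalized counts.

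The stretches around the annotated start sites are shown for the 3 genes on which the relations below turn: Chrna5, which followed the deep-layer markers, and Chrna7 and Chrnb2, which followed each other. Each stretch runs 5′ to 3′ on the gene's own strand from 250 bases before to 50 bases after the start, in the RefSeq annotation of the assembly GRCr8. Capitals mark GGGCGG, the core of the GC box bound by Sp-family factors, on either strand (CCGCCC on the other).
Chrna5 (chr8:64265629-64265928, plus strand): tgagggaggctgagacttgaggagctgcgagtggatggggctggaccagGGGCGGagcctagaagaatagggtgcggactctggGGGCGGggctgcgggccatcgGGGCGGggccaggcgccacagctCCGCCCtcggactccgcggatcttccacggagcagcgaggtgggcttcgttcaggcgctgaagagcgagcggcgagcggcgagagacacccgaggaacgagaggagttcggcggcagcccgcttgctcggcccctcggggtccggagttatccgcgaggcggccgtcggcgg
Chrna7 (chr1:126249080-126249379, minus strand): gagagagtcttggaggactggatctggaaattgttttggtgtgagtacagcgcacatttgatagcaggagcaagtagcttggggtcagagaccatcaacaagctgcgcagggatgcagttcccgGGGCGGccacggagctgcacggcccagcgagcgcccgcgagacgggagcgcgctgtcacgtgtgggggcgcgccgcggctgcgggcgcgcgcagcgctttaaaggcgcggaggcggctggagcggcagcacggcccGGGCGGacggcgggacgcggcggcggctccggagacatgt
Chrnb2 (chr2:177487257-177487556, minus strand): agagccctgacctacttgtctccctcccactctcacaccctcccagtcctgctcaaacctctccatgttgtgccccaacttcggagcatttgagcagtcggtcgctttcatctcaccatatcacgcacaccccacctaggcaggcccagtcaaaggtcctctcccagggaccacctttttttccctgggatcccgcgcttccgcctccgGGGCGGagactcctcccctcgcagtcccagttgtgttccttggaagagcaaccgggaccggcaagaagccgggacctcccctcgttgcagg
The motif occurred 4 times in the Chrna5 stretch, 2 times in that of Chrna7 and 1 time in that of Chrnb2. It was found in 7 of the 8 members, all but Chrm1, and in 33.1% of 33469 promoters of the same length. GC content was between 57.7% and 74.7% in the 8 members, where the median of all promoters was 51.7%. A match is a description of the letters and not a bound site.

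Of the Gq-coupled muscarinic receptors, Chrm1, the main muscarinic receptor of cortical pyramidal neurons, had 735 ± 110 normalized counts (SD, n = 27). Its lowest value was 401 in library 3, its median 741 and its highest 875 in library 17. Library 19 came next to library 3 from below, at 504, and the other 25 rats had 616 or more. Chrm3, which shares the Gq pathway with Chrm1, had 593 ± 65.7 (SD, n = 27), with a lowest value of 470 in library 5, a median of 599 and a highest of 717 in library 13. No rat stood apart in Chrm3, and the highest value was 1.53 times the lowest.

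Chrm2 encodes the Gi-coupled receptor known as an autoreceptor on cholinergic terminals and on interneurons. It had 34.4 ± 10.4 normalized counts (SD, n = 27), from 7.65 in library 3 over a median of 33.7 to 50.8 in library 9. The counts behind these values were between 5 and 60 reads, and counting error alone made up 32.5% of the variance of the normalized counts. Chrm4, the other Gi-coupled receptor and the one prominent in striatum, had 526 ± 69.1 (SD, n = 27), with 414 in library 35, a median of 522 and 715 in library 51. Its annotated span overlaps Mdk (152 ± 27.4 normalized counts, SD, n = 27). Strandedness is not given in the sources used here, so how reads of the overlap were counted is not known. The counts of Chrm4 and Mdk had a Spearman's rho of -0.25 across rats.

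The subunits of the heteromeric nicotinic receptor differed in spread. Chrna4 had 415 ± 63.4 normalized counts (SD, n = 27), between 317 in library 18 and 571 in library 52 around a median of 405. Its partner Chrnb2 had 311 ± 57.1 (SD, n = 27), with 122 in library 3, a median of 314 and 399 in library 12. Library 3 lay far below the others in Chrnb2, followed by library 19 at 219. Chrna5, the accessory subunit, had 168 ± 56.4 (SD, n = 27) and ranged 4.90-fold, from 58.9 in library 32 over a median of 155 to 288 in library 5. The low and high rats of Chrna5 came from both number sets. Chrna7, which forms the homomeric receptor, had 63.8 ± 20.2 (SD, n = 27), from 21.4 in library 3 over 61.5 to 115 in library 12, with 14 to 126 reads behind each value. Normalized counts are not divided by transcript length, so they do not rank these genes against each other.

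**Figure D1:**
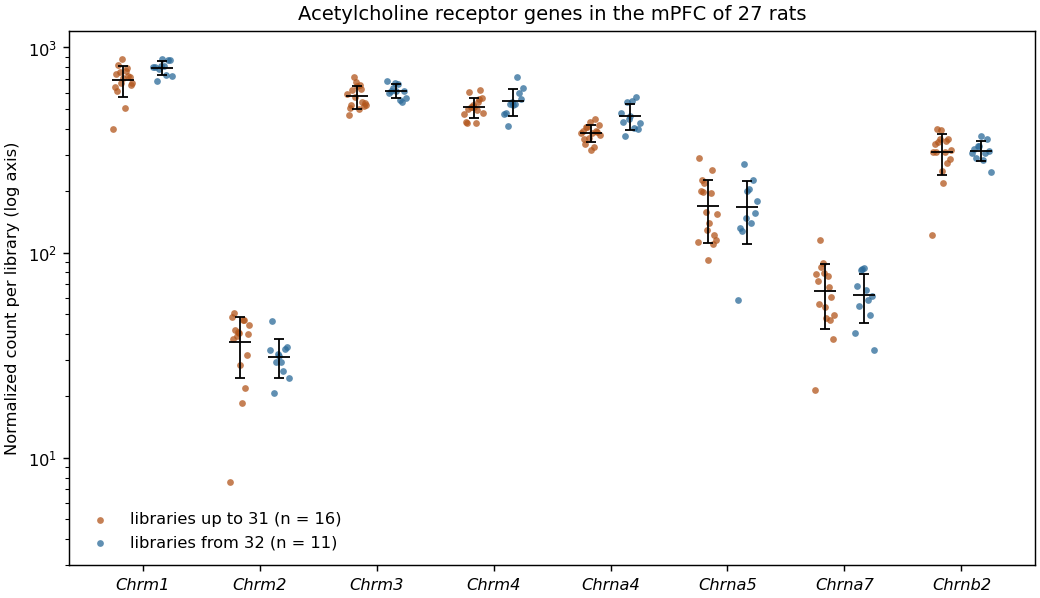
Normalized count (log axis) of each receptor gene in each of the 27 rats; points are libraries in order of their number, coloured by library number set, with horizontal bars for the set's mean and vertical bars for its SD. Chrna5, Chrna7 and Chrm2 spread most, and library 3 gives the lowest point of Chrm1, Chrm2, Chrna7 and Chrnb2.

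All 8 members varied between rats beyond counting error in a chi-square dispersion test, with Benjamini-Hochberg adjusted p between 4.27e-06 (Chrm2) and 3.31e-92 (Chrna5). The same held for 89.8% of all tested genes, so that count sets the receptors apart from nothing. The size of the spread differed between members. The SD of log2 values was 0.54 in Chrm2, 0.51 in Chrna5 and 0.50 in Chrna7, which placed these 3 at or above the 92.3rd percentile of all tested genes. Counting error was 32.5%, 5.45% and 16% of their variance, so Chrna5 was the one with the smallest counting share among them. Chrnb2 had 0.33 and Chrm1 0.25, and Chrna4, Chrm4 and Chrm3 had 0.21, 0.19 and 0.16, where the median of all genes was 0.19. In a whole piece of tissue, fewer cells of a type and less RNA per cell cannot be told apart.

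Chrna5 followed the markers of deep-layer excitatory neurons. A marker score, the mean z score over rats of 7 genes of layers 5 and 6 such as Foxp2, Tle4, Syt6 and Sulf1, was compared with each tested gene, and Chrna5 had a Spearman's rho of 0.90 with it (permutation p = 1e-05, the smallest that 100000 permutations can give; Benjamini-Hochberg adjusted p over all genes = 9.29e-07). Pearson's r was 0.92 (permutation p = 1e-05) and 0.88 once the 2 rats with the most extreme scores were left out. Only 0.716% of all genes were called with this score, and Chrna5 ranked 2 among 11730 genes by rho. The relation was present in both number sets, with a rho of 0.85 in the libraries up to 31 (permutation p = 1e-04) and 0.95 in those from 32 (permutation p = 4e-05). Library 32, with the lowest Chrna5 value, also had the lowest score (-1.63), and the next lowest in both was library 18, at 92.2 normalized counts and a score of -1.23.

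Each of the 7 deep-layer markers used was positively related to Chrna5. Sulf1, which encodes an extracellular sulfatase, had a rho of 0.85, Tle4 0.75, Foxp2 0.69, Syt6 0.62, Rprm 0.58, Fezf2 0.47 and Bcl11b 0.43. Tle4 and Foxp2 mark corticothalamic neurons of layer 6, and Fezf2 and Bcl11b are best known from subcerebral projection neurons of layer 5. The score of layer 6b and claustrum, built from 5 genes, gave a rho of 0.77 with Chrna5 (permutation p = 1e-05, adjusted p by Benjamini-Hochberg = 0.00463). Its Pearson's r was 0.78 (permutation p = 1e-05) and 0.71 once the 2 most extreme rats were left out, and its rho was 0.64 and 0.93 in the 2 number sets (permutation p = 0.00816 and 0.00014). The share of all genes called with that score was 0.222%. Among its genes, Cplx3 had a rho of 0.68 with Chrna5, Nxph4 0.64, Gnb4 0.50, Nr4a2 0.47 and Ccn2 0.47. Libraries 32 and 18, lowest in the deep-layer score, were also the lowest in that of layer 6b and claustrum (-1.21 and -1.50). The relation between the 2 scores was not tested, so these 2 relations of Chrna5 cannot be taken as separate. Against the upper-layer score, Chrna5 had a rho of -0.23 (permutation p = 0.246), with -0.02 in the libraries up to 31 and -0.73 in those from 32 (permutation p = 0.943 and 0.0144).

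**Figure D2:**
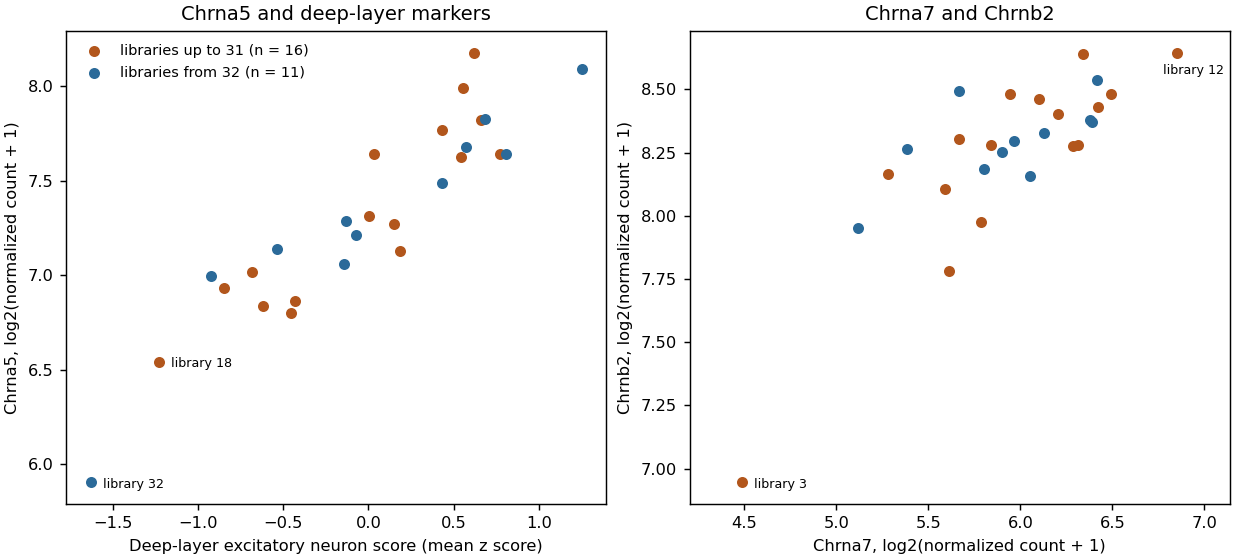
Left, Chrna5 as log2(normalized count + 1) against the deep-layer marker score (mean z score); right, Chrnb2 against Chrna7 on the same log2 scale; each point is 1 rat, coloured by library number set. Chrna5 rises with the score in both sets (rho 0.90 over all rats), library 32 is lowest in both on the left, and library 3 lies at the low end of both axes on the right.

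Of the 80 relations between the 8 members and 10 marker scores, 3 were called by Spearman's rho. Beside the 2 of Chrna5, Chrm3 followed the general neuron score with a rho of 0.58 (permutation p = 0.00209, Benjamini-Hochberg adjusted p = 0.0335), a score with which 6.72% of all genes were called. Pearson's r was 0.56 (permutation p = 0.00251) and 0.63 once the 2 most extreme rats were left out. The relation was 0.61 in the libraries up to 31 (permutation p = 0.0141) and 0.33 in those from 32 (permutation p = 0.327), and with total counts as the scaling its adjusted p was 0.0723. The call was lost without library 5, 13, 19, 20, 24, 26 or 32, with Benjamini-Hochberg adjusted p of 0.0520 to 0.0734. By rho, no member was called with the other scores, for which the background shares were 1.18% (upper layers), 1.07% (oligodendrocytes), 0.750% (astrocytes), 2.09% (meninges), 0.0341% (microglia) and 0.00853% (striatal projection neurons).

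With the GABAergic interneuron score, 0 genes passed by Spearman's rho, although 1298 genes and 0 members had an unadjusted p under 0.05, and Pearson's r called 1029 genes (8.77%), among them Chrm1 (r 0.58), Chrm2 (0.55) and Chrnb2 (0.61). Pearson's r also called Chrm1 (0.76), Chrnb2 (0.72), Chrm2 (0.57) and Chrna7 (0.55) with the upper-layer score, with which it called 24.5% of all genes, and Chrm1 with the neuron score (0.58; 10.6% of all genes). Library 3 was lowest in these 3 scores, and once the 2 most extreme rats were left out r was 0.08 to 0.35 for the GABAergic score, 0.28 to 0.50 for the upper layers and 0.49 for Chrm1 and the neuron score. By rho, the 3 relations that came closest to the threshold without passing it were those of Chrm1 with neurons (rho 0.51, adjusted p by Benjamini-Hochberg = 0.0745), Chrm3 with upper layers (0.55, adjusted p = 0.0972) and Chrna5 with oligodendrocytes (0.55, adjusted p = 0.162). Chrna5 also had the highest rho of the members with the striatal score, 0.51 (permutation p = 0.00768, adjusted p = 0.670), with 0.48 and 0.56 in the number sets. The deep-layer markers Foxp2 and Bcl11b are known from striatal neurons as well. Chrm4, prominent in striatum, had a rho of 0.18 with the striatal score over all rats, and opposite signs in the number sets. The rho was -0.59 in the libraries up to 31 (permutation p = 0.0175) and 0.75 in those from 32 (permutation p = 0.0115), or 0.66 there without library 51, which was highest in both. With astrocytes, Chrm4 had its lowest value, -0.43 (permutation p = 0.0266, Benjamini-Hochberg adjusted p = 0.409).

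**Figure D3:**
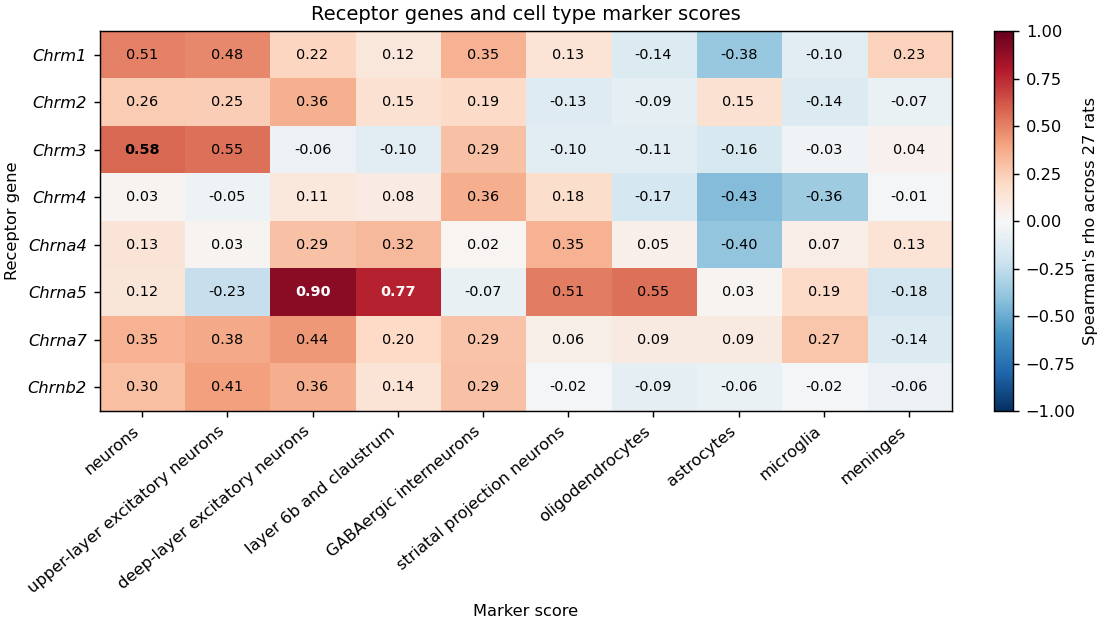
Spearman's rho across the 27 rats between each receptor gene (rows) and each marker score (columns), printed in the cells and coloured from -1 to 1, with called relations in bold. The Chrna5 row holds the highest values, 0.90 with deep-layer neurons and 0.77 with layer 6b and claustrum.

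Across rats the members were more often positively than negatively related to each other: 23 of the 28 pairs had a rho above 0, and the median rho was 0.33, where the median over all pairs of tested genes was -0.005. The members share their libraries, so these pairs are not independent. A total of 5 pairs were called, all positive, in a family of 93804 relations of the members with every tested gene, of which 8.14% were called. The sign of rho was the same in both number sets for 21 of the 28 pairs, and the median rho was 0.37 in the libraries up to 31 and 0.26 in those from 32.

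The highest value was that of Chrna7 and Chrnb2, subunits of different receptors. Their rho was 0.73 (permutation p = 4e-05, Benjamini-Hochberg adjusted p = 0.00174) and Pearson's r was 0.80 (permutation p = 2e-05). Without libraries 3 and 12, the lowest and highest in both genes, r was 0.64. The rho within the number sets was 0.80 (permutation p = 5e-04) and 0.59 (permutation p = 0.0626). Chrnb2 was also related to Chrm1, with a rho of 0.57 (adjusted p by Benjamini-Hochberg = 0.0306), and to Chrm2, with 0.54 (adjusted p = 0.0494). The Pearson's r of both was higher, at 0.82 (permutation p = 3e-05 and 6e-05), and fell to 0.45 in each without libraries 3 and 19. The call of Chrm2 and Chrnb2 was lost with each other scaling tried, TMM (Benjamini-Hochberg adjusted p = 0.0530), total counts (0.0806) and size factors of the tested genes (0.0526). It was also lost with genes down to a mean of 1 count in the family (0.0547) and without any 1 of libraries 3, 12, 13, 15, 17, 18, 19, 22, 24, 32, 35, 47, 51 and 54 (0.0504 to 0.121). That of Chrm1 and Chrnb2 was lost without library 3, 12, 17, 19, 43 or 52 (adjusted p of 0.0588 to 0.0808). Within the number sets the rho of Chrm1 and Chrnb2 was 0.67 and 0.61, and that of Chrm2 and Chrnb2 was 0.45 and 0.57.

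Chrm1 was related to Chrna4, with a rho of 0.67 (permutation p = 0.00017, Benjamini-Hochberg adjusted p = 0.00635) and a Pearson's r of 0.45 (permutation p = 0.0192), or 0.59 without libraries 3 and 19. Chrna4 was higher in the libraries from 32, and Chrm1 had a difference of the same sign that did not pass. Within the sets the rho was 0.38 and 0.42 (permutation p = 0.148 and 0.204), and with the number set regressed out it was 0.34 (adjusted p = 0.288), so the relation was smaller within the sets than over all rats. Chrm1 and Chrm3, both Gq-coupled, had a rho of 0.60 (permutation p = 0.001, Benjamini-Hochberg adjusted p = 0.0193) and a Pearson's r of 0.43 (permutation p = 0.0212), or 0.59 without libraries 3 and 19. Their rho was 0.61 in the libraries up to 31 and 0.10 in those from 32 (permutation p = 0.0131 and 0.774), and 0.49 with the number set regressed out (Benjamini-Hochberg adjusted p = 0.0771). With Pearson's r in the whole family, neither pair was called (adjusted p = 0.0883 and 0.105).

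Chrna4 and Chrnb2, the partners of the main heteromeric receptor, had a rho of 0.29 (permutation p = 0.139, Benjamini-Hochberg adjusted p = 0.373), with 0.38 and 0.42 in the number sets. With the first principal component of all genes regressed out, described next, it was -0.23. Chrna4 and Chrna5 had 0.24. Chrna5 and Chrna7 just missed the threshold, with a rho of 0.52 (permutation p = 0.00637, Benjamini-Hochberg adjusted p = 0.0584). The Gi-coupled pair Chrm2 and Chrm4 had the lowest value of all pairs, -0.09. For Chrm1 and Chrm2, Pearson's r was 0.60 (permutation p = 0.00625) where rho was 0.13 (permutation p = 0.529), and without libraries 3 and 19 r was -0.10. In the libraries from 32, which hold neither of these rats, their rho was 0.65 (permutation p = 0.0339), and in those up to 31 it was 0.21. Chrm2 and Chrna5 had 0.75 in the libraries up to 31 (permutation p = 0.00111) and -0.03 in those from 32.

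**Figure D4:**
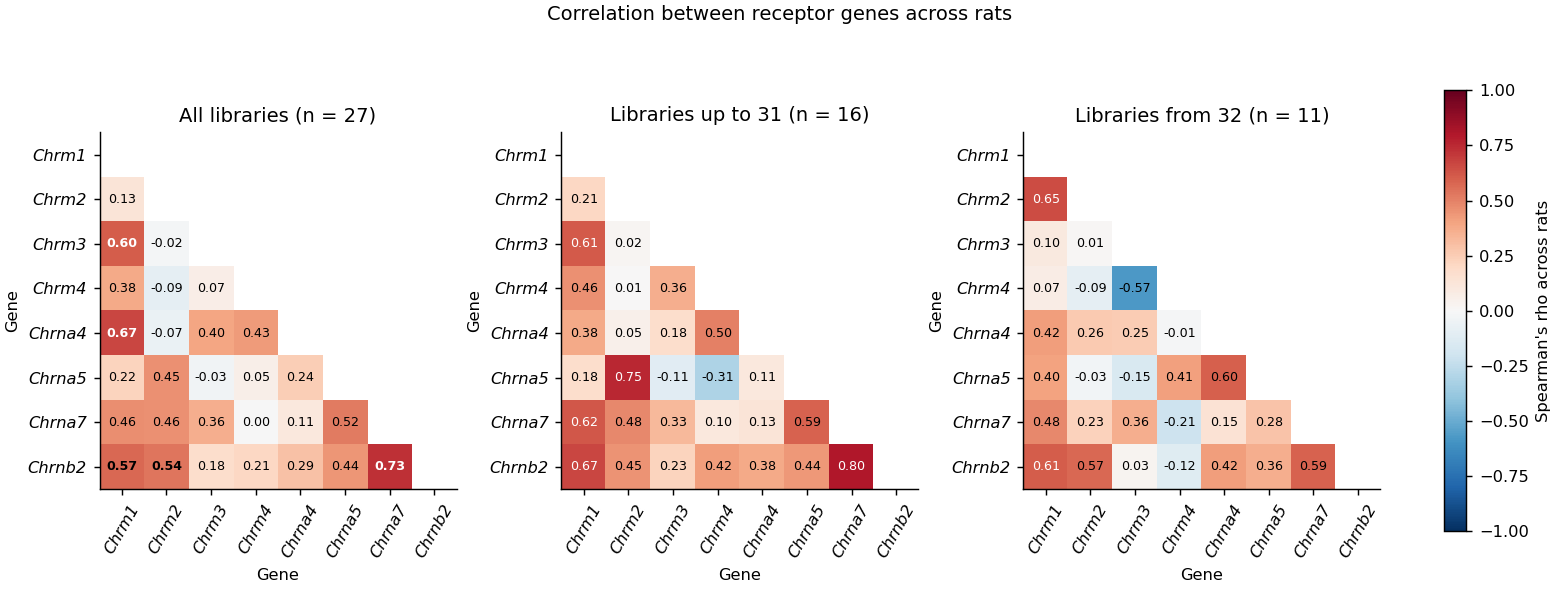
Spearman's rho across rats for each of the 28 pairs of receptor genes in all 27 rats and in each library number set, printed in the cells and coloured from -1 to 1; the 5 called pairs are in bold in the first panel. Chrna7 with Chrnb2 is highest over all rats (0.73), and Chrm1 with Chrm3 reads 0.61 in the libraries up to 31 and 0.10 in those from 32.

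The axis that separated library 3 from the others ran through several of these genes. The first principal component of all tested genes held 21.7% of the variance, with library 3 at 0.71 and the other rats between -0.23 and 0.31. Chrm1 had a rho of -0.85 with it, and only 0.682% of genes had a larger absolute value. Chrna7 had -0.68, Chrnb2 -0.67, Chrna4 -0.53 and Chrm3 -0.52, while Chrna5 had -0.34, Chrm2 -0.31 and Chrm4 -0.24. With the component regressed out of every gene, an alternative chosen after the data were seen, Chrna7 and Chrnb2 had a rho of 0.41 (Benjamini-Hochberg adjusted p = 0.228) and Chrm1 with Chrna4, Chrm3 and Chrnb2 had 0.31, 0.18 and 0.20. Only Chrm2 and Chrnb2 were still called, with 0.64 (Benjamini-Hochberg adjusted p = 0.0241). The relations of Chrna5 with the deep-layer and layer 6b scores were 0.88 and 0.78 there (adjusted p = 1.33e-05 and 0.00226), and that of Chrm3 with the neuron score was 0.32 (adjusted p = 0.284). What the component stands for was not tested.

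Each member had its own nearest genes over the 27 rats, by Spearman's rho of log2 values. For Chrna5 these were Dixdc1 (0.87), Sulf1 (0.85) and Thsd7b (0.84), and the lowest was Plac9 (-0.73). Chrna7 was closest to Glcci1 (0.91), Atrn (0.89) and Gucy1a1, a subunit of soluble guanylate cyclase (0.88), and farthest from Rab24 (-0.85). The rho of Chrna7 with Glcci1 was 0.93 in the libraries up to 31 and 0.94 in those from 32. Chrnb2 was nearest to Cdk5r1, the activator of Cdk5 (0.85), the potassium channel subunit Kcnf1 (0.85) and Nos1ap (0.85), with the mitochondrial ribosomal gene Mrps21 lowest (-0.78). Chrna4 went with Sez6 (0.80), Smim45 (0.79) and Rap1gap (0.78), and against the autophagy gene Atg3 (-0.80).

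Among the muscarinic genes, Chrm1 was nearest to the neural adhesion molecule L1cam (0.89) and to Lingo1 (0.85), with the ribosomal protein gene Rpl22 lowest (-0.88). Chrm2 went with Otud6b (0.83), Dip2c (0.82) and Caprin1 (0.82), and against Jmjd8 (-0.77). For Chrm3 the values were 0.75 with Tigd5, 0.75 with Brinp1 and 0.73 with Rbm11, and -0.77 with Rpia. Chrm4 was nearest to the potassium channel Kcnk3 (0.74), Txnrd1 (0.73) and Zfhx2 (0.73), with Il33 lowest (-0.68). The share of all genes called with a member was highest for Chrna7 (15%) and Chrm1 (12.8%), then 10.5% for Chrnb2 and 10.3% for Chrm2. It was 7.09% for Chrna4, 4.69% for Chrna5, 3.15% for Chrm3 and 1.65% for Chrm4.

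The other genes of the cholinergic system were examined from a list of 39: 13 further receptor genes, 7 genes of the synthesis, transport and breakdown of acetylcholine, 7 receptor partners and 12 genes of muscarinic signalling. Of the 13 further receptor genes, 3 averaged 10 counts or more, namely Chrna2 (28.5 ± 6.12 normalized counts, SD, n = 27), Chrnb1 (12.9 ± 4.63) and Chrna3 (12.3 ± 3.60), which lies beside Chrna5 in the genome. Chrna6 and Chrnd were listed at 0 in all rats, as was the interneuron gene Sst, and the remaining 8, Chrm5 among them (2.59 ± 2.23), averaged fewer. Of the genes that handle acetylcholine, the esterase gene Ache had 390 ± 45.3 normalized counts (SD, n = 27), the choline transporter Slc5a7 49.4 ± 14.2 and the vesicular transporter Slc18a3 14.9 ± 7.48. Chat, the synthesising enzyme, was not analysed here.

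The 26 of these genes that were tested gave 208 relations with the members, of which 26 were called (12.5%, against 8.14% over all genes), 24 positive and 2 negative. All 26 kept their sign within each number set and without library 3, where the smallest absolute rho was 0.50, an alternative added after the values were seen. Chrna7 had 8 of them (30.8%, where 15% of all genes were called with it) and Chrnb2 6 (23.1%, against 10.5%). Chrm2 had 5 (19.2%, against 10.3%) and Chrm1 4 (15.4%, against 12.8%). Chrm4, Chrna4 and Chrna5 had 1 each (3.85%, against 1.65%, 7.09% and 4.69%). Plcb1, a phospholipase C of the Gq pathway, had a rho of 0.75 with Chrna7, 0.63 with Chrnb2 and 0.63 with Chrm2 (Benjamini-Hochberg adjusted p between 0.00103 and 0.0122). Gnaq, the Gq alpha subunit, followed the same 3 genes, with 0.71, 0.73 and 0.61 (adjusted p between 0.00199 and 0.0167). The Gq-coupled Chrm1 and Chrm3 were called with neither gene, at 0.46 and 0.39 for Plcb1 and 0.30 and 0.08 for Gnaq. Their Benjamini-Hochberg adjusted p lay between 0.108 and 0.854. Plcb4, another phospholipase C gene, was called with Chrm1 (0.64, Benjamini-Hochberg adjusted p = 0.0105). The KCNQ channel gene Kcnq5 went with Chrm1 (0.76), Chrnb2 (0.74) and Chrna7 (0.69).

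Another gene of that channel family, Kcnq3, was called with Chrna7 (0.70) and Chrm2 (0.56). It had its lowest value in library 3 and its highest in library 12 (50.5 and 475 normalized counts), as did Chrna7 and Chrnb2. Chrm1 was positively related to Gnao1, the Go alpha subunit (0.79), and negatively to Gnai2, a Gi alpha subunit (-0.82, Benjamini-Hochberg adjusted p = 0.000181). Library 3, lowest in Chrm1, was also lowest in Gnao1 (1876 normalized counts) and highest in Gnai2 (5698), and without it the values were 0.76 and -0.79. Within the number sets they were 0.75 and 0.75 for Gnao1, and -0.76 and -0.51 for Gnai2. Gnai1, another Gi alpha subunit, had 0.43 with Chrm1, which was not called, and was called with Chrna5 (0.70), Chrm2 (0.68), Chrna7 (0.66) and Chrnb2 (0.64). The other negative call was that of Chrm2 and Ly6h (-0.60). Ric3, the chaperone of nicotinic receptors, was related to Chrna7 (0.57, Benjamini-Hochberg adjusted p = 0.0299), and Ache to Chrm4 (0.60, adjusted p = 0.0200). By Spearman's rho 0 of the 26 were called with Chrm3, where 9 had an unadjusted p under 0.05. The share of all genes called with Chrm3 was 3.15%.

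The levels of the members were then compared between the number sets, a split by library number that is not one of the study's conditions. Chrna4 was the only member called: it had 317 to 450 normalized counts (median 386) in the 16 libraries up to 31 and 370 to 571 (median 448) in the 11 from 32. The ranges overlapped, and the log2 difference, up to 31 minus from 32, was -0.27 ± 0.06 (SE; edgeR quasi-likelihood test, Benjamini-Hochberg adjusted p = 0.00355). Of all genes tested, 18% were called, so 1 of 8 members is below that share. Chrm1 was lower in the libraries up to 31 by a log2 difference of -0.20 ± 0.08 (SE) that missed the threshold (adjusted p = 0.0623, edgeR). The estimates of the other 6 lay between -0.09 and 0.24, with adjusted p of 0.325 or more, and Chrm2, with 0.24 ± 0.17 (SE), had the widest among the muscarinic genes.

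In the same fit, 1 of the 26 other cholinergic genes tested was higher in the libraries up to 31, namely Gnai2 (log2 difference 0.23, adjusted p = 0.0111 by edgeR). A total of 3 were lower, Slc18a3 (-0.60, adjusted p = 0.0331), Prima1, the membrane anchor of acetylcholinesterase (-0.33, adjusted p = 0.0225), and Plcb4 (-0.19, adjusted p = 0.0419). Without library 51 the difference of Slc18a3 was -0.37 (adjusted p = 0.0810, edgeR), and it also missed the threshold without library 9 or 18 (adjusted p = 0.0505 and 0.0516). Plcb4 missed it without any 1 of libraries 5, 9, 17, 19, 22, 26, 28, 32, 34, 39, 42, 43 and 53 (adjusted p of 0.0525 to 0.0912). Gnai2 and Prima1 passed with each library left out. The striatal marker score had a mean of -0.22 ± 0.34 (SD, n = 16) up to 31 and 0.32 ± 0.69 (SD, n = 11) from 32, or 0.19 without library 51. All 7 striatal markers had lower estimates in the libraries up to 31, of which edgeR called 0 (3 had an unadjusted p under 0.05) and DESeq2 called 1. Their summed level ranged from 2334 to 3025 normalized counts up to 31 and from 2555 to 3269 from 32. The part of these markers in the differences of the cholinergic genes was not tested.

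**Figure D5:**
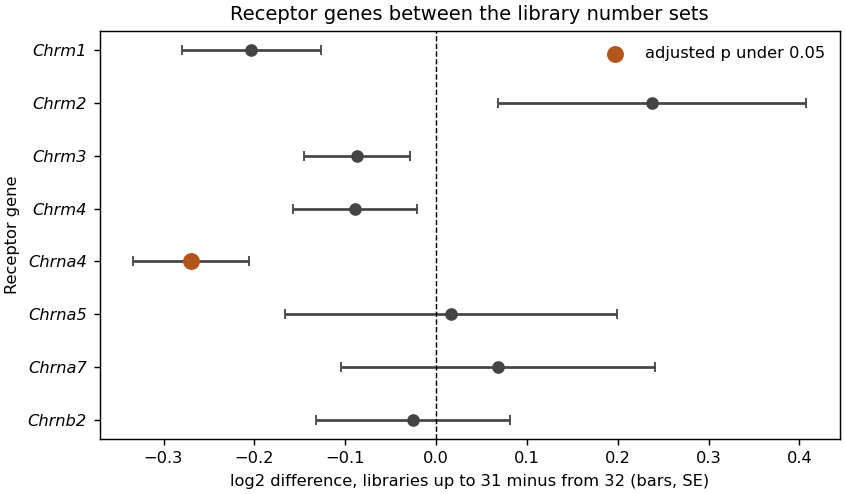
log2 difference in level between the library number sets (16 libraries up to 31 minus 11 from 32) for each receptor gene, with bars of 1 SE from the edgeR fit; the larger orange point has an adjusted p under 0.05. Chrna4 lies lowest, at -0.27, and the points of Chrna5, Chrna7 and Chrnb2 lie within 1 SE of 0.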

How the data were processed

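Libraries of polyA RNA from the mPFC of 27 rats were sequenced by the authors, who deposited raw counts of reads per gene, without normalization, 1 column per rat. The submitters' processing notes name Trimmomatic, STAR and HTSeq, and the genome build and strandedness are not given in the sources used here. Rows carry NCBI gene IDs which were matched to symbols through RefSeq's genes for GRCr8. A further suffix marks 436 rows of multi-locus genes, none of them a member. The genes, lists and scores were chosen with earlier results of these data known. Each library is 1 rat, and all 27 columns were used.

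Counts were divided by median-of-ratios size factors (DESeq2 1.42.0). Levels were compared as log2(normalized count + 1), a scale that shrinks differences of low genes, and genes averaging 10 counts or more were tested. Spread was tested against a Poisson distribution by a chi-square dispersion test. Relations are Spearman's rho with a t approximation, adjusted by Benjamini-Hochberg over all genes (and all members, for pairs), with two-sided permutation p (100000 permutations) and Pearson's r beside them. A member of a marker score was left out of the score when tested against it. Hs3st4 and Ogn were not analysed here, and Moxd1 and Sst, at 0 in all rats, entered no score. Number sets were compared with edgeR 4.0.16 (quasi-likelihood, TMM, filterByExpr). Tests were checked on simulated counts. Totals were 4907255 to 12771309 counts per rat, so 3 counts, the floor used, are 6.11e-05% to 2.35e-05% of a library. Without molecular identifiers, floors cover counting error only. Named genes are the members, the cholinergic and marker lists, genes overlapping or beside a member, and for each member the 3 genes with the highest and the 1 with the lowest rho; a few of these are not reported here. Alternatives were other scalings (TMM, total counts, size factors of the tested genes), a pseudocount of 0.1, other filters, Pearson's r, the number sets, libraries left out and DESeq2. Software was Python 3.11.15 (numpy 2.4.6, scipy 1.17.1, pandas 2.3.3, matplotlib 3.10.9) and R 4.3.3 (limma 3.58.1).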

Additional observations from a re-analysis of the deposited data

How the results depend on the processing

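The 8 members varied beyond counting in 8 of 8 or 7 of 8 cases under every alternative run. The number of called pairs, 5, was 3 without libraries 12 and 20, 2 in the libraries up to 31, 0 in those from 32 by Spearman's rho (where 2 had an unadjusted p under 0.05), 9 with the oligodendrocyte score regressed out and 1 with the first principal component regressed out, which was added once the data had been seen. Leaving out each library in turn gave 3 to 6 pairs, with 3 without library 3, library 12 or library 19. The number of called relations with marker scores, 3, was 11 with Pearson's r, 1 in the libraries up to 31 and 0 in those from 32 (where 9 had an unadjusted p under 0.05), and leaving out single libraries gave 2 to 4. With scores rebuilt from the libraries of 1 set alone, so that values differ slightly from those with scores over all rats, in the libraries from 32 Chrna5 and the deep-layer score still had a rho of 0.93 with an adjusted p of 0.0583 by Benjamini-Hochberg over all genes, and the layer 6b score lost its call in each set (rho 0.65 and 0.94, adjusted p = 0.557 and 0.117). Members called between the number sets were 2, not 1, without libraries 12 and 20 and with the oligodendrocyte score as a covariate, and leaving out each library gave 1 to 2. The added gene was Chrm1, which passed without library 3, 12, 17 or 35, and DESeq2 called 1 member. Other cholinergic genes called were 2 to 6 in place of 4, with 2 without library 9. Chrna4 and Chrnb2 turned from a rho of 0.29 to -0.23 with the first principal component regressed out. Signs also turned for set differences near 0: the set difference of Chrna5 was -0.016 without libraries 12 and 20 and -0.061 to 0.10 with single libraries left out, that of Chrna7 was -0.031 and -0.0063 to 0.13, and that of Chrnb2 -0.062 to 0.023. Why these values moved was not tested. Mean levels moved by less than 1 SD between scalings. The lowest counts, 5 to 60 reads for Chrm2 and 14 to 126 for Chrna7, limit what these genes can show. No paired analysis was possible because the rats form 1 group and carry no shared replicate numbers.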

Other observations

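Library 51 was high in several cholinergic genes, a pattern chosen after its values were seen. It held the highest value of Chrm4 (715 normalized counts against a median of 522), of Slc18a3, the vesicular acetylcholine transporter (47.9 against 13.8), of Ache (533 against 390) and of Prima1 (114 against 76.1). The same rat had the highest striatal projection neuron score (1.62) and the highest values of Adora2a (122 against a median of 57.5), Rgs9 (321 against 150) and Drd1 (351 against 237), while Drd2 was highest in another rat. Between the number sets, the log2 difference of Slc18a3 was -0.60 with this rat and -0.37 without it. The part of striatal tissue in these values was not tested.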
